A study of Rattus norvegicus with 12 samples.

Results

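AP-1 is a pair of basic leucine zipper (bZIP) proteins, usually 1 of the FOS family and 1 of the JUN family, that binds DNA as a dimer. The 8 genes described here were taken by name from a table of 16002 rat gene IDs: Fos, Fosb and Fosl2 of the FOS family, Jun, Junb and Jund of the JUN family, Atf3, and Maff. All 8 were in the table and all 8 passed the filter on low counts. The related gene Fosl1 was left out because its gene ID has 2 rows with different control values.

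The cells were H9C2, an established line of rat heart myoblasts labelled wild type. RNA was sequenced from 12 libraries in 3 groups of 4. The control group grew at normal oxygen, with no lentiviral vector and no hypoxia. The H/R group carried an empty lentiviral vector and had 8 h of hypoxia at 1% oxygen and then 2 h of reoxygenation. The LITAF group carried a lentiviral vector that overexpresses LITAF, an endosomal and lysosomal membrane protein, and had the same hypoxia and reoxygenation. H/R and LITAF libraries therefore share a vector and H/R, while a comparison with control holds the vector and H/R together, and these cannot be told apart. The sources used here do not give the vector's promoter, or how many clones or cultures were used. The labels call the 4 libraries of a group biological replicates of 1 batch. P-values thus measure the spread between these libraries, which may be technical.

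FOS proteins do not pair with each other and need a JUN partner, while JUN proteins can also pair among themselves. Fos, Fosb, Jun and Junb are immediate early genes: kinase signals act on factors already present in the cell, and the mRNA appears within minutes and decays quickly. Jund is known as the most constant member. ATF3 is a stress-induced bZIP protein, often a repressor, that is also switched on by ATF4 in amino acid and endoplasmic reticulum stress. MAFF is a small MAF protein with no activation domain of its own. Several of these genes are known to be induced in heart muscle by ischaemia and reperfusion.

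The RefSeq promoter table (build GRCr8) held 5 of the 8 genes, each as 250 bases before to 50 bases after the gene's start: Fosb, Fosl2, Junb, Jund and Maff. Several short motifs were searched for in these 5 windows. The 3 windows of Junb, Jund and Maff are printed because they hold the cyclic AMP response element, in full or in part. They were picked after the search, by this match. Capitals mark the cyclic AMP response element (CRE) TGACGTCA, its core TGACG or CGTCA, and the TATA box TATAAA, and the window is read 5′ to 3′ on the gene's strand. Junb lies at chr19:40080876-40081175 on the plus strand, Jund at chr16:18769722-18770021 on the minus strand and Maff at chr7:112792537-112792836 on the plus strand.
Junb: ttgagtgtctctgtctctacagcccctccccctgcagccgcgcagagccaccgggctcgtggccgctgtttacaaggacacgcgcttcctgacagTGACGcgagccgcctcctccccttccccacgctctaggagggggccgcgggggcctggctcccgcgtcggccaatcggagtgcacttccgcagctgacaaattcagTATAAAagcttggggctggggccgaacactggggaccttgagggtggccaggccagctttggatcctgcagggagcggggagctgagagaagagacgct
Jund: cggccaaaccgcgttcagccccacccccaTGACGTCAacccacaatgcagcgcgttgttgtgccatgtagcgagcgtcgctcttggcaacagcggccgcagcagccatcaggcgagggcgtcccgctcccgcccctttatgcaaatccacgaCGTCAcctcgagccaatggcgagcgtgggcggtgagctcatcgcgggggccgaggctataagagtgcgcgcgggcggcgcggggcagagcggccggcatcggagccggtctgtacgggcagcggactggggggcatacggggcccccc
Maff: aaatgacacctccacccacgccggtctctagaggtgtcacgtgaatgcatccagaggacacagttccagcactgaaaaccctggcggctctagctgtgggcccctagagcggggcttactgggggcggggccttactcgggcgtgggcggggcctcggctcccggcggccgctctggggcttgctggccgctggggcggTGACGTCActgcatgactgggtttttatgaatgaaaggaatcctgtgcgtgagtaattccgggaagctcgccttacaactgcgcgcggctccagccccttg

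The full CRE was found in 2 of the 5 windows, starting 221 bases before the start of Jund and 51 bases before that of Maff. Jund had a further core match at -98, and Junb had the core alone at -155, with a TATA box at -49. Of all 33469 promoter windows of this length, 1.83% held the full CRE, 21.2% the core and 14.2% the TATA box, on either strand. The core lies within the full CRE, so the 2 counts overlap. In Fosb the TATA box letters were found at -180, on the opposite strand. The AP-1 site TGANTCA (7.33% of all windows) and the CArG box bound by SRF (1.64%) were found in 0 of the 5 windows. The hypoxia core ACGTG (19.3%) was found in Maff alone, on both strands at -213 and -212, where the 2 matches overlap. A match to an NF-kB consensus (7.51%) was found in Jund alone, at 41 bases after the start. These are letter matches in a short window around an annotated start and say nothing of binding in these cells.

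Total counts ran from 16.89 to 20.74 M reads per library, and the lowest count of any of the 8 genes in any library was 202 (Atf3 in control library 1), where counting error alone is 7.04%. Litaf checks the labels: it ran from 549 to 619 counts per M reads (CPM) in the H/R group and from 2008 to 2691 CPM in the LITAF group. Among the 4 LITAF libraries the first principal component took up 75.0% of the variance, with library 1 at -0.69, library 3 at -0.20, library 4 at 0.25 and library 2 at 0.64. Of the 8 cardiomyocyte markers, 5 (Myh6, Nppa, Nppb, Tnni3 and Ryr2) stayed under 1 CPM in every library, while the early heart factors Gata4 and Nkx2-5 were measured after H/R at 17.3 ± 0.556 and 16.5 ± 2.84 CPM (SD, n = 4). The 5 endothelial markers summed to at most 1.39 CPM and the 4 measured macrophage markers to at most 1.71 CPM in any library.

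In cells with the LITAF vector, 6 of the 8 genes were higher than with the empty vector after the same H/R: Fos 2.72-fold, Junb 2.27-fold, Fosb 2.14-fold, Maff 1.41-fold, Jun 1.36-fold and Atf3 1.33-fold. Fosl2 and Jund did not pass the test, which was edgeR's quasi-likelihood test adjusted over all 11398 genes. Of all genes tested, 3.73% rose and 1.15% fell in this comparison; the rises were 76.4% of the calls, and 61.0% with library totals in place of TMM scaling. None of the 8 fell by edgeR, also at an unadjusted p under 0.05, where 7 were higher and 0 lower, and DESeq2 likewise called 6 higher and 0 lower. The median log2 change of the 8 genes was 0.47, against -0.01 for all genes.

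**Figure D1:**
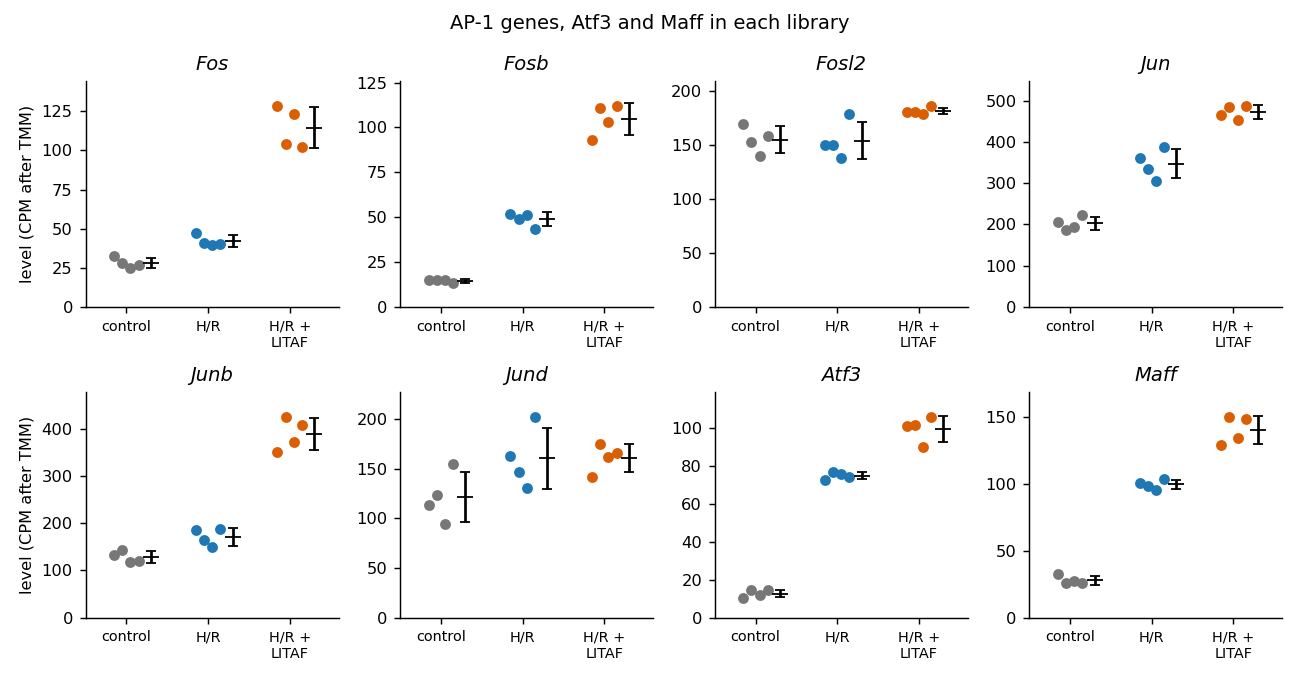
Level of each of the 8 genes in every library, as CPM after TMM scaling on an axis from 0 (points, 4 libraries a group), with the mean and SD beside them. Fos, Fosb and Junb in the LITAF group lie well above the H/R group, Atf3, Maff and Fosb in the H/R group lie well above control, and the Jund groups overlap.

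Fos (ENSRNOG00000008015), the founding member of the family, was at 47.5, 40.6, 39.8 and 40.3 CPM in H/R libraries 1 to 4. In LITAF libraries 1 to 4 it was at 128, 104, 124 and 102 CPM. Every LITAF library was above every H/R library, by log2 1.45 ± 0.12 (SE, adjusted p = 1.82e-06 by edgeR). Fosb (ENSRNOG00000046667), whose gene also makes a shortened, long-lived protein that gene counts do not separate, was at 52.0, 49.2, 51.3 and 43.2 CPM in the H/R group. It was at 93.1, 111, 103 and 112 CPM in the LITAF group, log2 1.10 ± 0.10 (adjusted p = 5.65e-06 by edgeR). These groups did not overlap either, and LITAF library 1 was the lowest of its group for Fosb and the highest for Fos.

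Fosl2 (ENSRNOG00000068412), a later-acting FOS protein, had the narrowest LITAF values of the 8 genes in proportion to their mean, at 181, 181, 179 and 186 CPM. H/R libraries 1 to 4 were at 150, 150, 138 and 179 CPM. After TMM scaling all LITAF libraries lay above all H/R libraries, but barely. The nearest were LITAF library 3 (178.91 CPM) and H/R library 4 (178.61 CPM). The difference of log2 0.24 ± 0.10 did not pass (adjusted p = 0.187 by edgeR).

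Junb (ENSRNOG00000065682), a JUN protein that often restrains JUN, was at 185, 164, 149 and 187 CPM in the H/R group and at 350, 425, 372 and 409 CPM in the LITAF group. It rose by log2 1.19 ± 0.11 (adjusted p = 5.65e-06 by edgeR), with no overlap. Junb was the only one of the 8 whose counts had decimals in all 8 H/R and LITAF columns; how the decimals arose is not stated. Jun (ENSRNOG00000026293), the main activating partner, was at 360, 334, 305 and 387 CPM in the H/R group and at 464, 485, 453 and 487 CPM in the LITAF group. It rose by log2 0.45 ± 0.10 (adjusted p = 0.0137 by edgeR), again with no overlap, but the call was lost without H/R library 2 (adjusted p = 0.0643), H/R library 3 (0.0689) or LITAF library 4 (0.0562).

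Jund (ENSRNOG00000019568) was at 163, 146, 131 and 202 CPM in the H/R group and at 141, 175, 162 and 165 CPM in the LITAF group. The ranges overlapped, and the difference was log2 0.00 ± 0.15 (adjusted p = 0.993 by edgeR), with a sign that changed with the scaling. The ratio of Junb to Jun CPM, which is not corrected for length and is read only across groups, ran from 0.483 to 0.514 in the H/R libraries and from 0.754 to 0.876 in the LITAF libraries. The ratio of Jund to Jun ran from 0.428 to 0.522 in the H/R libraries and from 0.304 to 0.361 in the LITAF libraries. Neither ratio overlapped between these groups, so in the LITAF libraries the JUN family held more Junb and less Jund for each Jun read. In the control libraries the 2 ratios ran from 0.535 to 0.771 and from 0.485 to 0.690.

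Atf3 (ENSRNOG00000003745) was at 72.7, 76.9, 76.0 and 74.4 CPM in the H/R group and at 101, 102, 90.0 and 106 CPM in the LITAF group. The groups did not overlap and the difference was log2 0.41 ± 0.11 (adjusted p = 0.0422 by edgeR). This call was the least steady of the 6: it was lost in 7 of the 8 fits with 1 library left out (adjusted p = 0.0583 to 0.146), all but that without LITAF library 1, which gave adjusted p = 0.0314. It was also lost with upper-quartile scaling (adjusted p = 0.0524) and with library totals alone (adjusted p = 0.0690). Maff (ENSRNOG00000012886) was at 101, 98.6, 95.6 and 103 CPM in the H/R group and at 129, 150, 134 and 148 CPM in the LITAF group. It rose by log2 0.49 ± 0.10 (adjusted p = 0.00858 by edgeR), with no overlap, and kept its call in all 8 fits with 1 library left out (adjusted p at most 0.0455). All 6 genes that rose, and Fosl2 by a very small margin, had non-overlapping and higher CPM after TMM scaling in the LITAF group. Such a separation held for 10.6% of all genes.

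**Figure D2:**
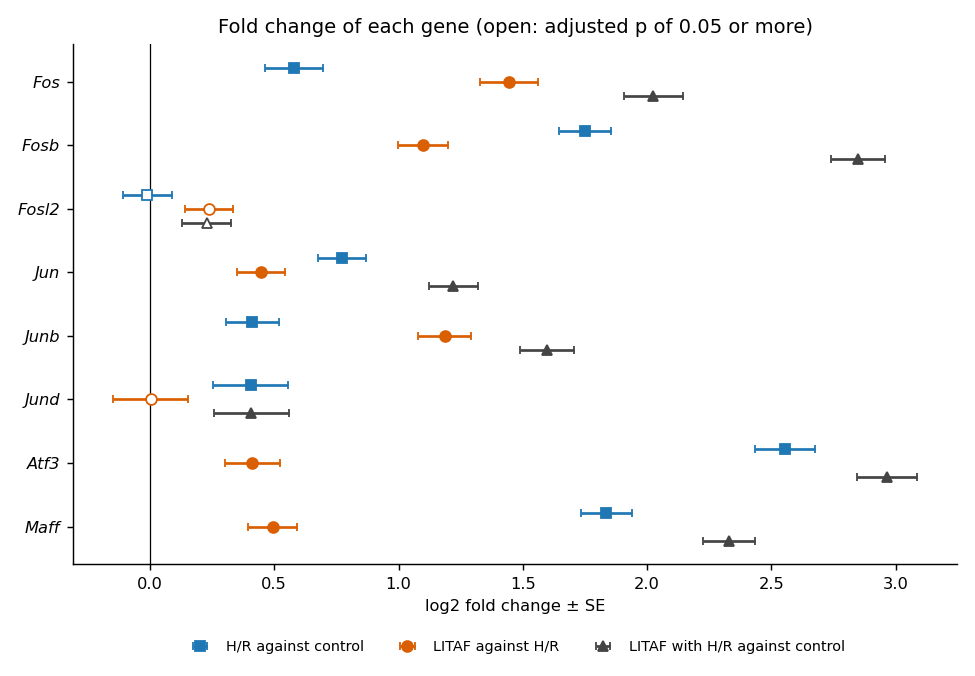
Log2 fold change with its SE for each of the 8 genes (rows) in the 3 comparisons (colours and shapes), with open symbols where the adjusted p was 0.05 or more. Atf3 is at 2.55 for H/R against control and at 0.41 for LITAF against H/R, while Fos is at 0.58 and 1.45.

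Within the LITAF group the genes did not follow 1 order. Litaf itself was at 2691, 2008, 2532 and 2120 CPM in libraries 1 to 4, so libraries 1 and 3 were the higher. Fos was likewise higher in libraries 1 and 3, at 112 and 108% of its group mean, against 91.0 and 89.2% in libraries 2 and 4. All the others but Fosl2, 6 of the 8 genes, were lower in libraries 1 and 3 than in libraries 2 and 4. Of these, Fosb stood at 88.9 and 98.3% against 106 and 107%, Junb at 90.0 and 95.6% against 109 and 105%, and Maff at 92.0 and 95.6% against 107 and 106%. The ratio of Fosb to Fos CPM was accordingly 0.726 and 0.833 in libraries 1 and 3 and 1.06 and 1.09 in libraries 2 and 4. These are the same libraries that lie on either side of 0 on the principal component given above, and with 4 libraries no relation was tested. Without LITAF library 1 the same comparison had log2 1.41 for Fos, 1.17 for Fosb, 1.25 for Junb and 0.55 for Maff, with 6 of the 8 genes called. Over all genes that fit called 1285 of 11515, against 556 of 11398 with every library.

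**Figure D3:**
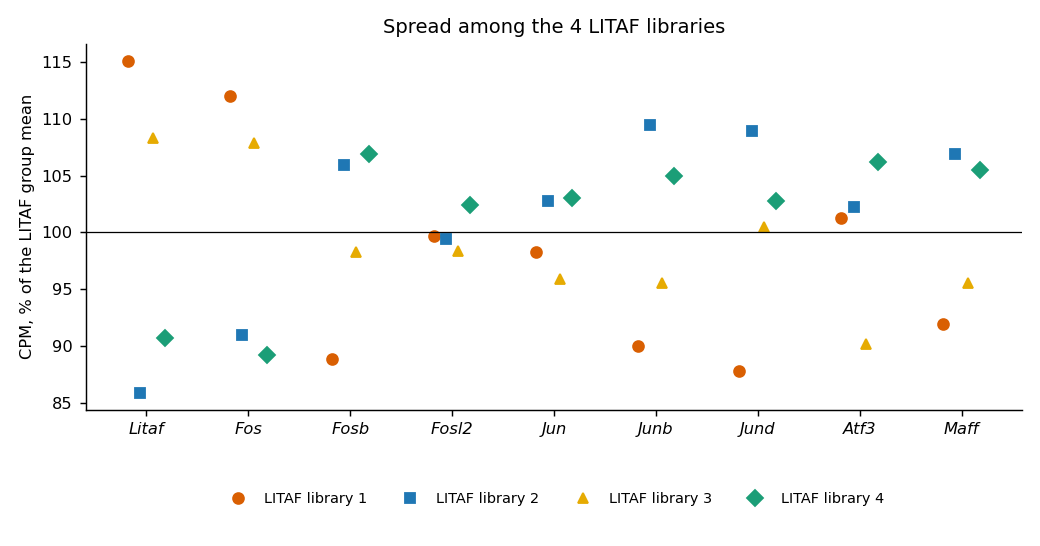
CPM of Litaf and of the 8 genes in each of the 4 LITAF libraries (symbols), in percent of the mean of that group. Litaf and Fos are above 100% in libraries 1 and 3, where Fosb, Junb and Maff are below 100%.

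The H/R group against control describes hypoxia, reoxygenation and the empty vector at a single time, 2 h after oxygen returned. Control libraries also held a smaller share of values that were not whole, which this comparison cannot set apart from H/R and the vector. Atf3 had the largest difference of the 8 genes, 5.87-fold, followed by Maff at 3.57-fold and Fosb at 3.36-fold. Jun rose 1.71-fold, Fos 1.49-fold, Junb 1.33-fold and Jund 1.32-fold, and Fosl2 stood at log2 -0.01 ± 0.10. In all, 7 of the 8 genes rose by edgeR's test and none fell, also at an unadjusted p under 0.05 and by DESeq2. This is read against a background in which 31.8% of all genes rose and 31.8% fell. The median log2 change of the 8 genes was 0.68, against 0.01 for all genes. With upper-quartile scaling or library totals the median of all genes moved to 0.12 and 0.13, and the changes of all 8 genes moved up with it.

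Atf3 was at 10.3, 14.6, 11.8 and 14.4 CPM in control libraries 1 to 4, all far below the 72.7 to 76.9 CPM of the H/R group, log2 2.55 ± 0.12 (adjusted p = 3.68e-11 by edgeR). Maff was at 32.5, 25.8, 27.4 and 25.8 CPM in control, log2 1.84 ± 0.10 (adjusted p = 2.88e-10 by edgeR). Fosb was at 14.8, 14.8, 15.3 and 13.3 CPM in control, log2 1.75 ± 0.11 (adjusted p = 6.68e-10 by edgeR). None of these 3 overlapped with the H/R group, and the differences of Maff and Fosb lay within 1 SE of each other. Fos was at 32.6, 28.4, 24.9 and 26.8 CPM in control, below every H/R library, log2 0.58 ± 0.12 (adjusted p = 0.000395 by edgeR). The ratio of Fosb to Fos thus ran from 0.455 to 0.615 in control and from 1.07 to 1.29 in the H/R group.

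Jun was at 207, 187, 194 and 224 CPM in control, log2 0.77 ± 0.10 (adjusted p = 3.51e-06 by edgeR), and Junb was at 132, 144, 118 and 120 CPM, log2 0.41 ± 0.11 (adjusted p = 0.00306 by edgeR). Neither overlapped with the H/R group, although Junb in control library 2 was close to H/R library 3. Jund was at 113, 123, 93.9 and 155 CPM in control and did overlap. Its rise of log2 0.41 ± 0.15 (adjusted p = 0.0278 by edgeR) was lost without control library 1, control library 3, H/R library 1 or H/R library 4 (adjusted p = 0.0541 to 0.129). Fosl2 was at 170, 153, 140 and 158 CPM in control and also overlapped (adjusted p = 0.937 by edgeR). The 6 genes other than Jund and Fosl2 had higher, non-overlapping CPM in the H/R group, as did 30.2% of all genes.

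Control and H/R libraries of the same number deviated together across all genes (r = 0.302 to 0.568), and some of the 8 genes showed this. Fos had the same order in both groups, with library 1 highest, then 2, 4 and 3, and Jund was highest in library 4 and lowest in library 3 of each. The library with the lowest value had the same number in both groups for 6 of the 8 genes, and the highest for 4. The share of all genes with such matches was not computed. For Jund the ratio of H/R to control ran from 1.19 to 1.44 between libraries of the same number and from 0.844 to 2.15 between any 2 libraries. For Fos these ranges were 1.43 to 1.60 and 1.22 to 1.91. They differed little for Maff (3.11 to 4.00 and 2.94 to 4.01), Junb (1.14 to 1.56 and 1.03 to 1.58) and Atf3 (5.17 to 7.06 and 4.99 to 7.47). With the replicate number as a block in a fit of these 2 groups, 7 of the 8 genes were called, as without it. Of all 11239 genes in these fits, 8032 were called with the block and 7352 without it. Junb counts were whole numbers in the control columns and not in the H/R columns.

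**Figure D4:**
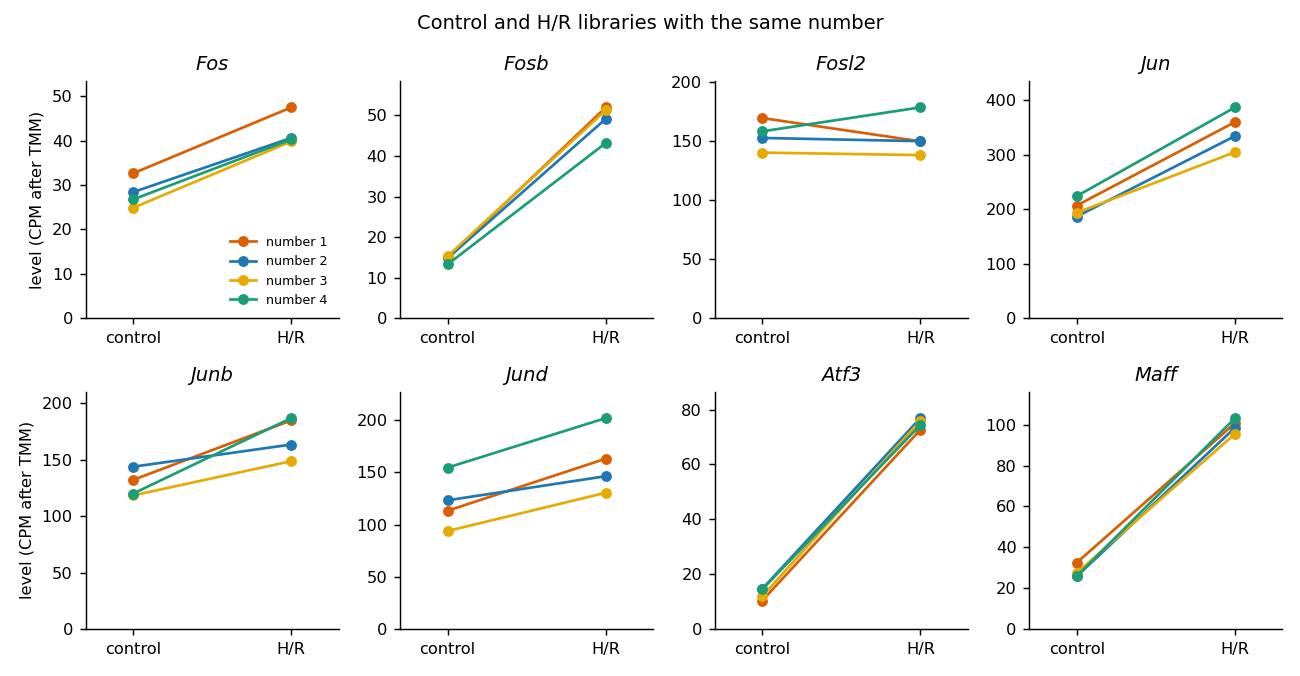
CPM of each of the 8 genes in the control and H/R libraries, on axes from 0, with lines that join libraries carrying the same number. For Jund number 4 is highest and number 3 lowest in both groups, while the lines of numbers 1 and 2 cross, and all Atf3 lines rise steeply.

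Summed levels of skeletal myoblast, fibroblast and cardiomyocyte markers also differed between groups. The 10 skeletal myoblast markers, all in the table and 8 of them tested, summed to 2210 to 6486 CPM in control, 513 to 645 CPM in the H/R group and 530 to 598 CPM in the LITAF group, with Myf5, Myf6 and Chrna1 under 1 CPM throughout. The 6 fibroblast markers summed to 36096 to 46861, 13278 to 15066 and 15809 to 20447 CPM in the same order, with Dcn at 0 in every library and Pdgfra and Lum under 1 CPM. The 8 cardiomyocyte markers summed to 208 to 447, 80.3 to 110 and 164 to 221 CPM, mostly from Tnnt2. The cardiomyocyte and fibroblast sums did not overlap between the H/R and LITAF groups either, and were higher with LITAF. The part of these markers in the results, those with LITAF included, was not tested. In bulk RNA, fewer cells of a type and less RNA per cell cannot be told apart.

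LITAF cells after H/R differed from control in 7 of the 8 genes, all higher, with 32.0% of all genes rising and 32.6% falling. This comparison shares its libraries with the other 2 and adds no independent evidence. Atf3 was 7.82-fold, Fosb 7.20-fold, Maff 5.03-fold, Fos 4.07-fold, Junb 3.02-fold, Jun 2.33-fold and Jund 1.33-fold higher. Atf3 and Fosb differed by about the size of their SE (log2 2.97 ± 0.12 and 2.85 ± 0.11), and the CPM of both groups overlapped only for Jund. The other 7 genes had higher CPM with no overlap, which held for 26.4% of all genes. Fosl2 did not pass (log2 0.23 ± 0.10, adjusted p = 0.0520 by edgeR), and Jund lost its call in 4 of the 8 fits with 1 library left out, those without control library 1, control library 3, LITAF library 2 or LITAF library 4 (adjusted p = 0.0546 to 0.0828).

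Set side by side, the changes of each gene differed between the first 2 comparisons. Atf3 changed by log2 2.55 with H/R and by 0.41 with LITAF, and Maff by 1.84 and 0.49. Fos changed by 0.58 and 1.45, and Junb by 0.41 and 1.19. Fosb changed by more than 2-fold in both (1.75 and 1.10), and Jun by less than 2-fold in both (0.77 and 0.45). Both comparisons use the H/R libraries, 1 time as the raised group and 1 time as the reference, so these values are linked and the difference between them was not tested.

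Among the genes upstream of Fos and Jun (factors that bind their promoters, and kinases of the MAP kinase cascades), 36 of 37 listed genes were among the gene IDs analysed and 32 were tested. With LITAF 1 of the 32 rose, a share near the 3.73% of all genes. It was Srf, which codes for the serum response factor that binds the Fos promoter. Its level was 87.1 CPM in the H/R group and 152 CPM in the LITAF group, log2 0.81 ± 0.15 (adjusted p = 0.00482 by edgeR). The ERK1 gene Mapk3 stood at log2 0.34 ± 0.11, Elk1, a partner of SRF, at 0.36 ± 0.12 and the kinase gene Rps6ka5 at 0.62 ± 0.19, and none of these 3 passed. With H/R 8 of the 32 rose and 12 fell, where 31.8% of all genes rose and 31.8% fell. The MEK1 gene Map2k1 rose by log2 1.75 ± 0.14 and the ERK5 gene Mapk7 by 1.21 ± 0.13, while Mrtfb, a coactivator of SRF, fell by 1.93 on the log2 scale. The median of the 32 was 0.07 with LITAF and -0.20 with H/R.

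Fos-type mRNAs are short-lived because AU-rich elements in them are bound by decay factors, and AP-1 proteins are removed through ubiquitin ligases. Of 17 such genes 16 were tested, and 3 rose with LITAF, where 3.73% of all genes did. Zfp36, which codes for the decay factor tristetraprolin, went from 72.5 ± 4.09 to 158 ± 9.96 CPM (SD, n = 4), log2 1.12 ± 0.13, and its relative Zfp36l2 rose by 0.58 ± 0.13. Trib1, an adaptor of the ubiquitin ligase COP1, rose by log2 0.99 ± 0.10, and Cop1 itself stood at -0.29 ± 0.09 and did not pass (adjusted p = 0.0896 by edgeR). With H/R 4 of the 16 rose and 8 fell, where 31.8% of all genes rose and 31.8% fell. Among the 8 were Trib1 (log2 -1.52 ± 0.10), Trib2 (-1.62 ± 0.16) and Cnot1 (-0.99 ± 0.13), a scaffold of mRNA deadenylation. Trib1 and Zfp36l2 were thus lower with H/R and higher with LITAF than with the empty vector. The list median was 0.01 with LITAF and -0.24 with H/R.

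Of 33 genes often given as AP-1 targets, 32 were among the gene IDs analysed and 23 were tested. The matrix protease genes Mmp3, Mmp9, Mmp10, Mmp12 and Mmp13 were among the 9 that the filter on low counts removed, each at or below 0.280 CPM in every library. With LITAF 4 of the 23 rose, where 3.73% of all genes did, among them the chemokine gene Ccl2 (log2 2.06 ± 0.31), the cytokine gene Lif (1.60 ± 0.15) and the MAP kinase phosphatase gene Dusp1 (0.65 ± 0.14). With H/R 10 of the 23 rose and 5 fell, where 31.8% of all genes rose and 31.8% fell. Vegfa rose by log2 2.72 ± 0.11, the urokinase receptor gene Plaur by 1.50 ± 0.12 and the adhesion gene Cd44 by 0.98 ± 0.09, and these 3 stood at -0.01, -0.02 and -0.13 with LITAF. Ccl2 and Dusp1 fell with H/R, at log2 -2.15 ± 0.31 and -0.60 ± 0.14. The list median was 0.12 with LITAF and 0.17 with H/R.

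**Figure D5:**
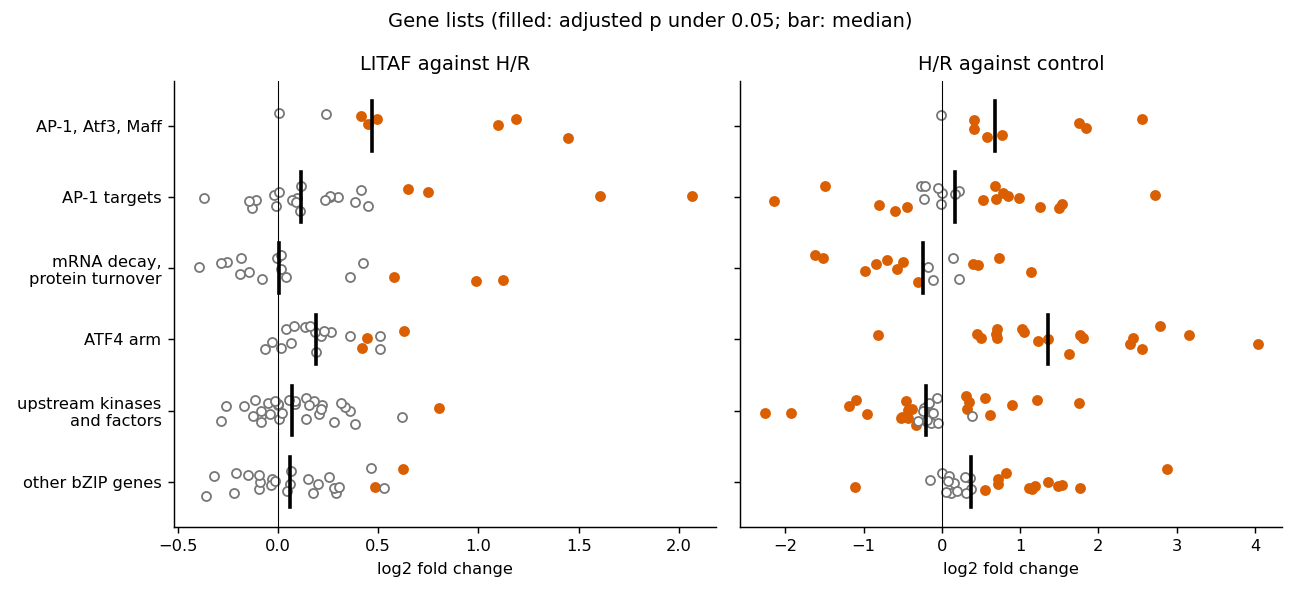
Log2 fold change of each tested gene (points) in the 6 gene lists for LITAF against H/R and for H/R against control, filled where the adjusted p was under 0.05, with the list median as a bar. The ATF4 arm has a median of 1.35 with H/R and 0.19 with LITAF, and the 8 genes described here have medians of 0.68 and 0.47.

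A list of amino acid and endoplasmic reticulum stress genes, called the ATF4 arm here, had 19 tested genes of 20. Atf3 is induced in the same stresses, and which factor acted on each listed gene was not tested. With H/R 18 of the 19 rose and 1 fell, where 31.8% of all genes rose and 31.8% fell, with a median of log2 1.35. The chaperone gene Hspa5 rose by log2 4.04 ± 0.13, the kinase-like Trib3 by 2.55 ± 0.12 and the stress gene Nupr1 by 2.45 ± 0.11, beside the 2.55 of Atf3. With LITAF 3 of the 19 rose, where 3.73% of all genes did, and 16 did not pass, with a median of 0.19. Nupr1 rose by log2 0.63 ± 0.10, the asparagine synthetase gene Asns by 0.44 ± 0.11 and the glutathione-degrading Chac1 by 0.42 ± 0.10, close to the 0.41 of Atf3. Atf4 itself stood at 943 CPM in the H/R group and 925 CPM in the LITAF group.

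Among 38 other bZIP genes, which include possible partners of FOS, JUN and small MAF proteins, 32 were among the gene IDs analysed and 25 were tested, with Fosl1 and Ddit3 left out for rows that differ. With LITAF 2 of the 25 rose, where 3.73% of all genes did: Bach1, which pairs with small MAF proteins and represses Hmox1, from 66.1 to 102 CPM (log2 0.62 ± 0.15), and Tef, a clock-related factor (0.49 ± 0.11). Dbp (log2 0.46 ± 0.15) and Cebpg (0.28 ± 0.09) did not pass. With H/R 12 of the 25 rose and 1 fell, where 31.8% of all genes rose and 31.8% fell. The largest rise was that of Dbp (log2 2.88 ± 0.19, from under 1 CPM). Xbp1 (1.77 ± 0.09) and Atf4 (1.35 ± 0.09) also rose and are also in the ATF4 list. The median was 0.06 with LITAF and 0.37 with H/R. In the 2 rows of Fosl1, the H/R counts (2271 to 2587) and LITAF counts (3213 to 4233) were identical, while the control counts ran from 540 to 845 in 1 row and from 495 to 827 in the other.

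The genes with the pattern most like Fos over the 12 libraries were Casp8 (Pearson r = 0.986 of log2 CPM), Zc3h12a (0.982), Litaf (0.976) and Zfp36 (0.975), the second coding for an RNase that degrades inflammatory mRNA. For Jun they were Hk2 (0.990) and Sema3b (0.990), Dnajb1 (0.989) and Prag1 (0.986). For Atf3 they were Ftl1 (0.998), Zfand2a (0.998), Hmox1 (0.997) and Eif4ebp1 (0.997). The genes like Atf3 rose mostly with H/R: Hmox1 was at 69.5 ± 9.51 CPM in control, 1873 ± 128 in the H/R group and 2720 ± 347 in the LITAF group (SD, n = 4). Casp8, like Fos, rose mostly with LITAF, at 4.62 ± 0.169, 9.08 ± 0.953 and 36.2 ± 1.44 CPM. These r values include the differences between the 3 group means. With group means removed the closest genes were others: Ripk1 for Fos (r = 0.938), Retreg2 for Jun (0.951) and Rab3ip and Dcp1b for Atf3 (0.934 each), each the highest among 11398 genes over 12 libraries that share numbers between groups.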

How the data were processed

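RNA sequencing of 12 H9C2 libraries was analysed from 1 table. Per the file headers, the authors deposited raw, unnormalized read counts per gene with Ensembl rat IDs. These deposited values were treated as estimated counts and rounded, as 2.79 to 12.25% of a library's values were not whole. The submitters' processing notes list DESeq2 and edgeR, with no role given. The aligner, counter, strand setting, build and annotation are not named in any source used here, so overlapping genes and close paralogs are uncertain. Of 16204 rows, 72 gene IDs with differing rows were left out, all differing in control columns only.

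edgeR 4.0.16 (R 4.3.3) was fitted to all 12 libraries with a mean per group: filterByExpr (11398 genes), TMM scaling, robust quasi-likelihood F-test, two-sided, Benjamini-Hochberg adjustment over all genes, threshold 0.05. SEs were computed from F as the log2 change over its square root. Log2 CPM used a prior count of 2. DESeq2 1.42.0, other scalings and filters, fits of 2 groups, a replicate block and fits without each library were alternatives. The test was checked on simulated data.

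Same-numbered control and H/R libraries deviated together (r = 0.302 to 0.568 across genes), so their numbers pair them. H/R and LITAF (0.054 to 0.197) and control and LITAF (0.049 to 0.100) did not all pass 0.1.

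The 8 genes, the 5 gene lists and the markers were chosen with earlier results of these data known. Named list genes were, per list, the 4 with the smallest p for LITAF against H/R and the 3 for H/R against control. Likeness was followed for Fos, Jun and Atf3, with 4 genes each. Of the genes this rule named, 1 is not reported here.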

Additional observations from a re-analysis of the deposited data

Results flagged for a closer look

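Of 24 sets of 4 libraries (the 8 genes in 3 groups), 1 had a library far from the others: Fos in H/R library 1, at 47.5 CPM, where the other H/R libraries lay between 39.8 and 40.6 CPM. Chance flags about 1 in 20 such sets. Without this library Fos differed between the LITAF and H/R groups by log2 1.51 in place of 1.45.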

How the results depend on the processing

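Of the 8 genes, 6 were called higher with LITAF than with H/R, and 4 to 6 under the alternatives (4 at an adjusted p under 0.01), with 4 to 6 when 1 library was left out. Against control, 7 were called with H/R (6 to 7 under both kinds of alternative) and 7 with LITAF (6 to 8 under both). Fos, Fosb, Junb and Maff kept their LITAF call in all 18 alternatives each. Jund, near 0 with LITAF, changed sign with upper-quartile scaling (log2 -0.008), with library totals (-0.047) and between fits without 1 library (-0.085 to 0.147). Fosl2, near 0 with H/R, was at 0.106 with upper-quartile scaling, 0.118 with library totals, 0.004 without a filter and -0.085 to 0.042 without 1 library. The cause was not tested. Fosl2 against control with LITAF passed in 7 of 18 alternatives.

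Calls over all genes for LITAF against H/R depended on the fit: 556 here, 182 at an adjusted p under 0.01, 873 with a replicate block, 902 by DESeq2, and 1098 in a fit of the 2 groups (887 with the block). They were 272, 279, 244 and 365 without H/R libraries 1 to 4, and 1285, 407, 322 and 244 without LITAF libraries 1 to 4. The 8 genes had counts of at least 202 in every library, and the part of depth in their calls was not tested.

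With the replicate block in a fit of all 12 libraries, 6, 7 and 8 of the 8 genes were called in the 3 comparisons, and in fits of 2 groups 6, 7 and 7. Of all 11398 genes, the fit of 12 libraries called 873, 7564 and 7672. The added call was Fosl2 (log2 0.231, adjusted p = 0.0416 by edgeR), and the block changed no other call. H/R and LITAF libraries share only a number.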
